A study of Oryza sativa with 12 samples.

Results

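SWEET2B, SWEET5, SWEET11, SWEET15 and MST3 are 5 rice genes for proteins that carry sugars across membranes, and their mRNA levels were followed here in panicles of a heat tolerant line (252) and a heat sensitive line (082). The genes were chosen by the size of their heat changes in these same arrays, SWEET2B and SWEET5 in line 252 and the other 3 in line 082, and were found by name in the gene annotation of the array. They are 5 of 17905 genes with a probe set, and all 5 were bright enough to be kept for testing. Where a gene had several probe sets, the one with the highest mean over the arrays was used. The values that led to the choice, the differences between the lines and the differences of heat changes are given as descriptions without a test. A test is given for each gene only in the line whose heat change did not lead to its choice.

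Plants of each line were kept for 5 days under heat, with days of 37 °C and nights of 30 °C, called high temperature here, or under the optimal regime of 30 °C days and 25 °C nights, and total RNA of panicles was hybridized to a 1-colour Affymetrix rice array. Each of the 4 groups held 3 arrays, 12 in all, which the labels call biological replicates. Whether they came from separate plants, the stage of the panicles and the hour of sampling were not given, so p-values measure the spread between these samples. The lines are named only by number and by their heat tolerance, and no transgene or chemical agent is named.

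SWEET proteins are carriers that let sugars flow down their concentration gradient, out of cells or across inner membranes, without using protons. Clade III members such as SWEET11 and SWEET15 carry mainly sucrose, while members of the other plasma membrane clades carry mainly hexoses. MST proteins work the other way: they use the proton gradient to take up monosaccharides released from sucrose by cell wall invertase. In the rice caryopsis no plasmodesmata join the mother tissue to the endosperm and embryo, so sucrose must leave one set of cells and be taken up by another, and SWEET11 and SWEET15 are known for this step in grain filling.

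Values are MAS5 signals, a linear brightness per probe set in arbitrary units. The array medians lay between 36.5 and 41.9 under heat and between 55.1 and 68.4 under the optimal regime, and the correlation between replicates from 0.948 to 0.977. All 14 floral organ genes looked up as panicle markers were bright enough to be kept, with summed signals of 36590 to 105400. Markers of the filling grain (13 storage protein, allergen, starch and regulator genes) summed to 231000 to 309700 on the optimal arrays of line 082, to 506.6 to 12530 on those of line 252, and to 224.7 to 823.9 at high temperature. The glutelin gene GLUB-4 was below the median of every array. Of the 12 grain markers kept, heat lowered 12 in line 082 and 2 in line 252. GLUD-1 and RA17 were above the array median only on the optimal arrays of line 082. GLUA-1, GLUA-3, PROLM25, RA5, RA14, VP1 and NF-Y4 were above it on fewer than 3 other arrays. As the filter asks for 3 arrays, it kept all of these genes only through that group. A fall in line 082 was thus built in for them. The 11 markers of dividing cells were lowered in both lines, from sums of 18680 to 25550 (line 252) and 10840 to 18130 (line 082) to sums of 1357 to 2066. Of all genes tested, 38.4% were called either way in line 082 and 33.4% in line 252, by the rule given below. The marker lists were written with earlier results known, so nothing is read from these counts. The 4 anther and pollen markers, with TDR below every array median, summed to 41.05 to 443.3 and the 4 green tissue markers to 43530 to 85360. The ratio of the 3′ to the 5′ signal of the Dap control transcript lay at 11.2 to 13.2 under heat and at 1.58 to 1.98 under the optimal regime, and its part in the heat changes below was not tested. At optimal temperature the signal of the small-subunit ribosomal RNA was 980.2 to 1357 in line 252 and 18320 to 25250 in line 082, and the 3′ to 5′ ratio of actin 39.4 to 66.8 and 9.51 to 12.1. At high temperature the ribosomal RNA signal was 10300 to 11340 in line 252 and 6901 to 10320 in line 082. The actin ratio was then 67.3 to 105 in line 252 and 72.4 to 279 in line 082. Both measures thus also differed between the temperatures within each line. Their part in the heat changes and in the differences between the lines was not tested. Replicate 3 of line 252 at high temperature stood apart from the other 2 of its group, with 212 of 16541 genes at least 4-fold above both (2 on the log2 scale of signal plus 16). For the other 11 arrays this number was 1 to 85, the highest being replicate 1 of line 252 at optimal temperature. Results that turn on these arrays are given with and without them.

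SWEET5, a member of the hexose-carrying clade II, was well above the array medians in line 252 at optimal temperature and close to them in both lines at high temperature. At optimal temperature its signals were 1717, 2108 and 2910 in line 252 and 279.8, 274.3 and 150.8 in line 082. At high temperature they were 36.9, 44.2 and 8.75 in line 252 and 59.7, 38.3 and 30.4 in line 082. No array of one temperature overlapped an array of the other within a line, and at optimal temperature all arrays of line 252 lay above all arrays of line 082. In line 082, which did not lead to its choice, SWEET5 fell by 2.08 ± 0.37 (SE) on the log2 scale of signal plus 16 (limma, Benjamini-Hochberg adjusted p = 0.00041; 3 of 3 arrays below every optimal array). This fall was called in all alternatives, with values from −2.43 to −1.46. A change was called at an adjusted p below 0.05 with a log2 size of 1 or more, and 38.4% of the 16541 genes tested were called in that comparison. In line 252 the log2 change was −5.69 ± 0.37. As the high-temperature signals lie near the array medians, this size depends on the 16 added to each signal. It was −4.61 with 64 added and −6.42 with 1.

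SWEET2B, whose protein from rice gave a crystal structure of a plant SWEET, showed the opposite order at optimal temperature. Its signals there were 143.4, 85.9 and 124 in line 252 and 1741, 623.4 and 520.3 in line 082. At high temperature they were 1353, 1013 and 890.8 in line 252 and 979.7, 1221 and 856.5 in line 082. Line 252 at optimal temperature was thus the low group, and the arrays of the other 3 groups overlapped one another. Replicate 1 of line 082 at optimal temperature gave the highest of the 12 signals. The log2 change with heat was 3.04 ± 0.37 in line 252. In line 082 it was 0.28 ± 0.37 (95% interval −0.52 to 1.08; limma, adjusted p = 0.55), and it was not called. That value became −0.05 without replicate 3 and 0.81 without replicate 1 of line 082 at optimal temperature, so its direction is not settled. The other probe set of SWEET2B gave changes of 2.97 in line 252 and 0.08 in line 082.

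MST3, a proton-coupled monosaccharide carrier, was low only in line 082 at optimal temperature. Its signals were 1203, 554.3 and 448.9 in that group and 6313, 5587 and 8399 in the same line at high temperature. In line 252 they were 4253, 8113 and 8877 at optimal and 4875, 3844 and 2394 at high temperature. The lowest group did not overlap any of the others, and the 2 groups of line 252 overlapped through replicate 1 of each. At high temperature every array of line 252 lay below every array of line 082. The log2 change with heat was 3.28 ± 0.37 in line 082. In line 252 it was −0.92 ± 0.37 (95% interval −1.73 to −0.11; limma, adjusted p = 0.061), short of a call. The call was reached without replicate 1 of line 252 at optimal temperature (−1.25, limma, adjusted p = 0.019) or at high temperature (−1.15, adjusted p = 0.042). Without replicate 3 at high temperature, the array that stood apart, the change was −0.64 (adjusted p = 0.21). Over all alternatives the adjusted p ran from 0.0057 to 0.21.

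**Figure D1:**
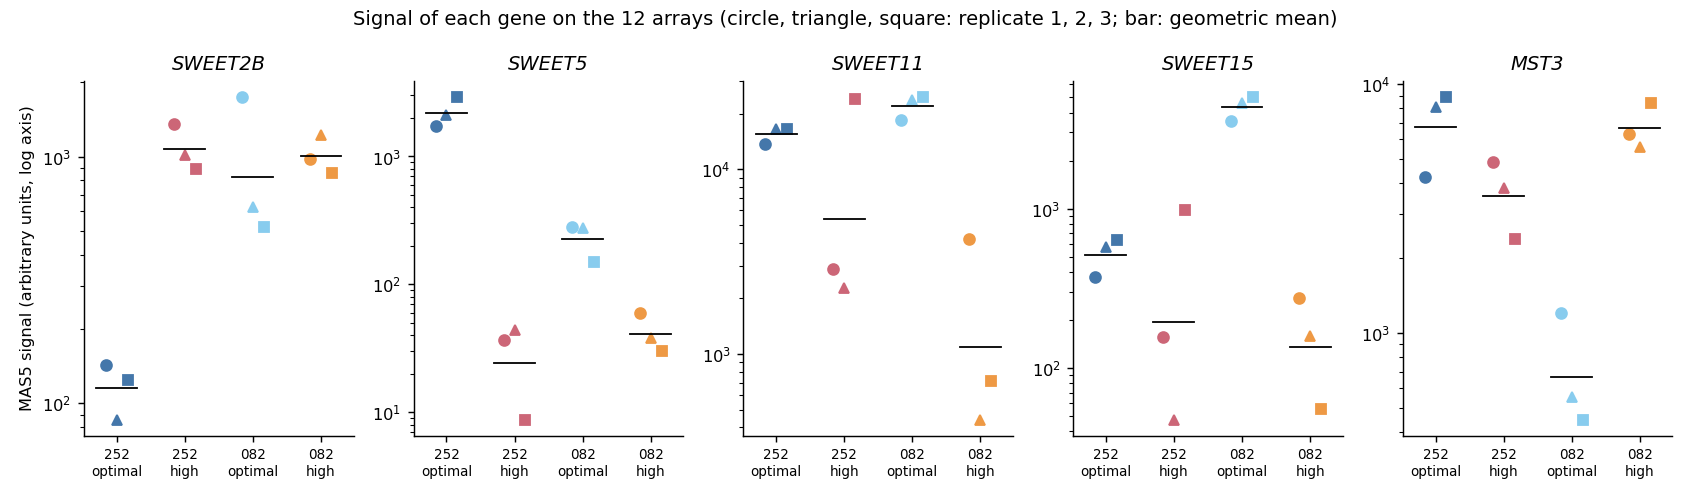
MAS5 signals (log axis, arbitrary units) of the 5 genes on the 12 arrays, by line and temperature, with a panel and its own scale for each gene. Symbols mark replicates 1 to 3 and the bars are geometric means of 3 arrays. SWEET5 is highest in line 252 at optimal temperature, SWEET2B lowest there, MST3 lowest in line 082 at optimal temperature, and SWEET11 has a single array of 24108 among the high-temperature arrays of line 252.

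SWEET11, a sucrose carrier of clade III also known as Xa13 for its part in bacterial blight, was bright in both lines at optimal temperature. Its signals there were 13804, 16521 and 16525 in line 252 and 18399, 23832 and 24606 in line 082. At high temperature they were 4174, 441.1 and 711.9 in line 082, all below every optimal array. In line 252 they were 2889, 2278 and 24108 at high temperature, so 2 arrays lay below and 1 lay above all optimal arrays of that line. The log2 change was −4.31 ± 0.83 in line 082. In line 252 it was −1.52 ± 0.83 (95% interval −3.33 to 0.29; limma, adjusted p = 0.16), and without replicate 3 at high temperature it was −2.59 and called (adjusted p = 0.0073). The heat result of SWEET11 in line 252 therefore rests on 1 array. Its probe set is of a kind (suffix _s_at) that can bind transcripts of more than 1 gene.

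SWEET15, the other clade III carrier, was high in a single group. In line 082 its signals were 3520, 4580 and 4997 under the optimal regime and 276.5, 158.4 and 55.5 under heat. In line 252 they were 371.7, 575 and 633.2 at optimal and 155.4, 47.4 and 982.8 at high temperature. The optimal arrays of line 082 lay above all other arrays. In line 252 the temperatures overlapped, since replicate 3 at high temperature was above every optimal array and the other 2 were below. The log2 change was −4.82 ± 0.77 in line 082. In line 252 it was −1.26 ± 0.77 (95% interval −2.92 to 0.40; limma, adjusted p = 0.20), and −2.35 and called without that replicate (adjusted p = 0.0036).

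In bulk panicles fewer cells that make a transcript and less transcript per cell cannot be told apart. The grain markers moved with part of the pattern of both clade III genes, as the plot of SWEET11, SWEET15 and the summed grain markers shows. On the optimal arrays of line 082 the 3 measures were at 70.4% to 100% of their highest array. On the optimal arrays of line 252 SWEET11 was still at 56.1% to 67.2% of its highest array, SWEET15 at 7.44% to 12.7% and the grain markers at 0.164% to 4.05%. Replicate 1 of that group had the highest grain marker sum (12530, of which 11650 came from GBSS-I, the enzyme that makes amylose) and the lowest SWEET11 and SWEET15 signals of the group. On replicate 3 of line 252 at high temperature SWEET11 was at 98.0% of its highest array and SWEET15 at 19.7%, with the grain markers at 0.0756%. The 13 grain markers there ran from 1.35 (GLUA-1) to 65.5 (GLUB-5), against an array median of 41.9. GLUB-5 and GLUA-2 (49.9) lay above that median, and GLUD-1 (28.3) was above its signals on the other arrays of the group (13.4 and 11.3). The part of grain tissue in the high clade III levels of line 082 at optimal temperature was not tested.

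**Figure D2:**
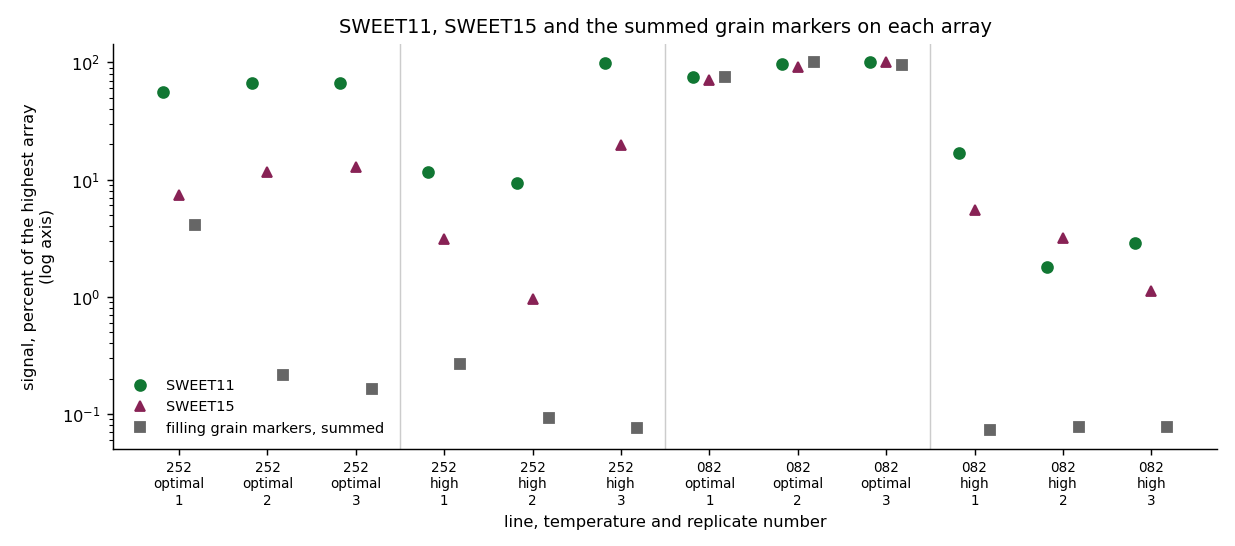
Signal of SWEET11, of SWEET15 and of the summed grain markers on each of the 12 arrays, as a percentage of the highest array of each (log axis). SWEET11 is at 56.1% or more on all optimal arrays of both lines and at 98.0% on replicate 3 of line 252 at high temperature, where the grain markers are at 0.0756%.

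Within lines, heat parted the arrays of 2 of the 5 genes without overlap in line 252 (SWEET2B and SWEET5) and of 4 of 5 in line 082 (all but SWEET2B). Over all genes tested the share was 66.3% in line 252 and 68.3% in line 082. As these contrasts led to the choice of the genes, nothing is read from the counts. The difference of heat changes, 252 minus 082, was 2.77 ± 0.52 for SWEET2B, −3.61 ± 0.52 for SWEET5, 2.79 ± 1.18 for SWEET11, 3.56 ± 1.08 for SWEET15 and −4.20 ± 0.53 for MST3, again as descriptions. Without replicate 3 of line 252 at high temperature it was 1.71 for SWEET11 and 2.47 for SWEET15.

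**Figure D3:**
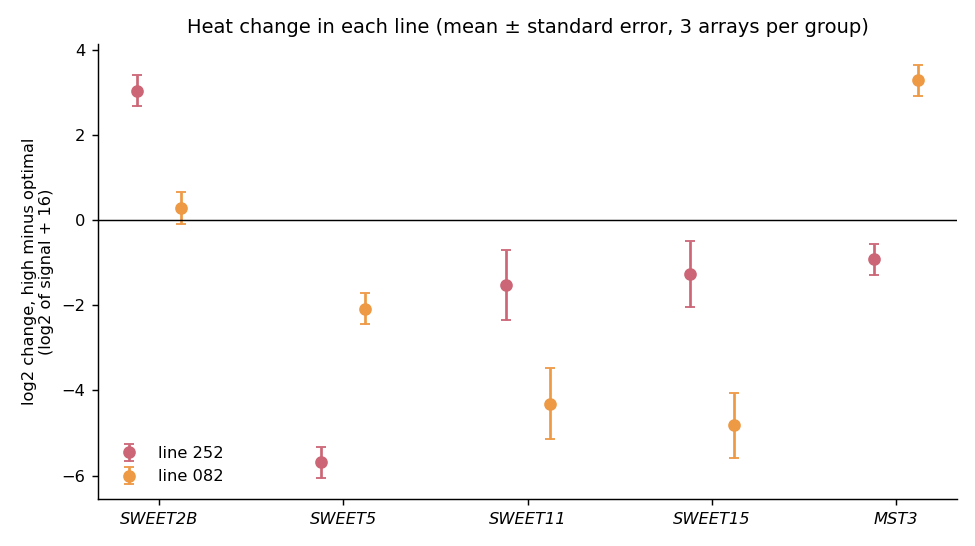
Log2 change of the 5 genes from optimal to high temperature in each line, with standard errors from the model of all 12 arrays (3 per group). SWEET5, SWEET11 and SWEET15 have negative values in both lines, SWEET2B is at 3.04 in line 252 and 0.28 in line 082, and MST3 is at −0.92 and 3.28.

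The lines stood further apart at optimal than at high temperature for 4 of the 5 genes. At optimal temperature the log2 difference, 252 minus 082, was −2.68 ± 0.37 for SWEET2B, 3.18 ± 0.37 for SWEET5, −3.03 ± 0.77 for SWEET15 and 3.30 ± 0.37 for MST3. At high temperature these were 0.08 ± 0.37, −0.42 ± 0.37, 0.52 ± 0.77 and −0.90 ± 0.37. SWEET11 was the exception with −0.51 ± 0.83 at optimal and 2.28 ± 0.83 at high temperature, or 1.21 without replicate 3 of line 252. Without that array the high-temperature value of SWEET15 turned from 0.52 to −0.56. Arrays of the lines did not overlap for 5 of 5 genes at optimal temperature, where this held for 60.8% of all genes, and for 1 of 5 (MST3) at high temperature, where it held for 20.1%. These comparisons share their arrays with the heat contrasts that led to the choice of the genes.

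Other genes of sugar transport and sucrose cleavage were taken from 4 name-based lists. Of 26 with a probe set 22 were kept, while SWEET12, MST5, SUS6 and CIN3 were too dim. In line 252 heat raised 5 and lowered 6 of the 22, with 33.4% of all genes called, and in line 082 it raised 4 and lowered 6, with 38.4% of all genes called. Scaling moved these splits: with spikes 1 rose and 9 fell in line 252, and with centring on the 75th percentile 7 rose and 6 fell in line 082. The median log2 change of the 22 was −0.34 and −0.12, against −0.15 and 0.02 over all genes. Of the 11 sucrose synthase and invertase genes, heat raised 3 and lowered 4 in line 252 and raised 3 and lowered 6 in line 082. The rises, named after their values were seen, were those of CIN4 in both lines (1.11 ± 0.36 and 2.14 ± 0.36), NIN1 (1.14 ± 0.18) and NIN3 (1.02 ± 0.14) in line 252, and CIN1 (1.33 ± 0.33) and CIN7 (1.36 ± 0.31) in line 082. SUS3, a grain sucrose synthase, fell in both lines, with log2 changes of −5.0 ± 0.76 in line 252 and −9.96 ± 0.76 in line 082. Its signals in line 082 at high temperature were 4.01 to 8.85, all below the array medians, so the size of that fall depends on the 16 added (−8.29 with 64 and −11.69 with 1). In line 252 the SUS3 change was −5.89 without replicate 3 at high temperature and −4.09 without replicate 1 at optimal temperature. CIN2, a cell wall invertase gene, also fell in both (−4.30 ± 0.52 and −4.49 ± 0.52), as did SUS5 (−2.14 ± 0.42 and −2.46 ± 0.42). Signals at high temperature were again low, at 14.2 to 116 and 23.4 to 71.1 for CIN2. For SUS5 they were 14.9 to 28.7 in line 252 and 2.87 to 52.3 in line 082. The sizes of these falls are therefore uncertain, and over the alternatives SUS5 ran from −2.75 to −1.32 and from −3.47 to −1.51. SUS1 fell too (−3.23 ± 0.34 and −2.97 ± 0.34), although its other probe set differed more between the lines (−1.96 and −4.70).

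The 7 kept SWEET genes outside the set held 1 heat call in each line, where 33.4% (line 252) and 38.4% (line 082) of all genes were called. In line 252 only SWEET16, a vacuolar type, was called, with a rise of 1.57 ± 0.36 (limma, adjusted p = 0.0033) from 22.6 ± 12.2 (SD, n = 3) to 96.6 ± 21.2. In line 082 only SWEET1A of the hexose-carrying clade I was called, with a rise of 1.74 ± 0.22 (adjusted p = 2.8e-05) from 574 ± 177 to 1910 ± 162, while its much dimmer probe set gave 0.26. SWEET1A changes of −0.76 in line 252 and 1.74 in line 082 had the same signs as those of MST3, and neither gene was called in line 252. The same signs were seen for SWEET1B, SWEET4, CIN1 and CIN7, named after their values were seen. Some of these values were smaller than their SE, so their signs are not settled. They were 0.16 ± 0.5 for SWEET1B in line 082, and −0.16 ± 0.24 for SWEET4 and −0.23 ± 0.33 for CIN1 in line 252. How many of all genes had these signs was not counted. SWEET14, the clade III relative of SWEET11 that is also a blight target, gave 0.83 ± 0.18 in line 252 and −0.68 ± 0.18 in line 082, both under the minimum of 1, and its other probe set gave 0.38 and −0.47. SWEET4, a hexose carrier of the filling grain named after its values were seen, gave −0.16 ± 0.24 and 0.86 ± 0.24.

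Of the proton-coupled sucrose transporters 4 were measured. In line 252 SUT5 (−1.84 ± 0.47) and SUT1 (−1.47 ± 0.27) fell, and SUT2 rose by 1.38 ± 0.21, whose dimmer probe set gave −1.24. In line 082 none of the 4 was called by limma at these thresholds, with 2 of 4 at an unadjusted p under 0.05. The share of all genes called was 33.4% in line 252 and 38.4% in line 082. SUT2 (0.86 ± 0.21) and SUT1 (−0.62 ± 0.27) had the largest changes there, and over the alternatives SUT2 ran from 0.22 (adjusted p = 0.29, mean of its probe sets) to 1.05, a call reached without replicate 1 of line 082 at optimal temperature (adjusted p = 0.0011) or with centring on the 75th percentile.

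The difference of heat changes was called for 9 of the 22 genes, 5 higher and 4 lower in line 252, with 25.3% of all genes called (4 higher and 6 lower with spike scaling). It was 4.97 ± 1.07 for SUS3 (limma, adjusted p = 0.0043), a size that rests on the same dim signals and ran from 3.98 with 64 added to 6.31 with 1. Without replicate 3 of line 252 at high temperature it was 4.07, and without replicate 1 at optimal temperature 5.88. The difference was −2.50 ± 0.30 for SWEET1A (adjusted p = 0.00012), 1.97 ± 0.35 for SUS4 (adjusted p = 0.0014) and −1.79 ± 0.44 for the invertase gene CIN7 (adjusted p = 0.0085). For SUT5 it was −1.74 ± 0.66 and not called (limma, adjusted p = 0.065). That value was −2.31 without replicate 3 of line 252 at high temperature, and leaving out 1 array gave adjusted p from 0.0076 to 0.14. At optimal temperature the lines differed in 11 of the 22, 6 higher and 5 lower in line 252, with 28.9% of all genes called (4 higher and 5 lower with centring on the 75th percentile). The log2 difference of SUS3, 252 minus 082, was −2.86 ± 0.76 (limma, adjusted p = 0.0083), and −3.77 without replicate 1 of line 252 at optimal temperature. SWEET14 was lower in line 252 by 2.08 ± 0.18 on the log2 scale, with 388 ± 83.0 against 1670 ± 196 (adjusted p = 2.6e-06), and SWEET1A was higher by 2.30 ± 0.22, with 2850 ± 592 against 574 ± 177 (adjusted p = 5.3e-06). At high temperature 0 of the 22 were called by limma, with 2 at an unadjusted p under 0.05 (SWEET14 and SUS3), and 1.48% of all genes were called. The value of SUS3, 2.10 ± 0.76, was 1.21 without replicate 3 of line 252, where its signal was 308.4 against 20.9 and 52.6 on the other 2 arrays. The count at high temperature was 0 in every alternative run.

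**Figure D4:**
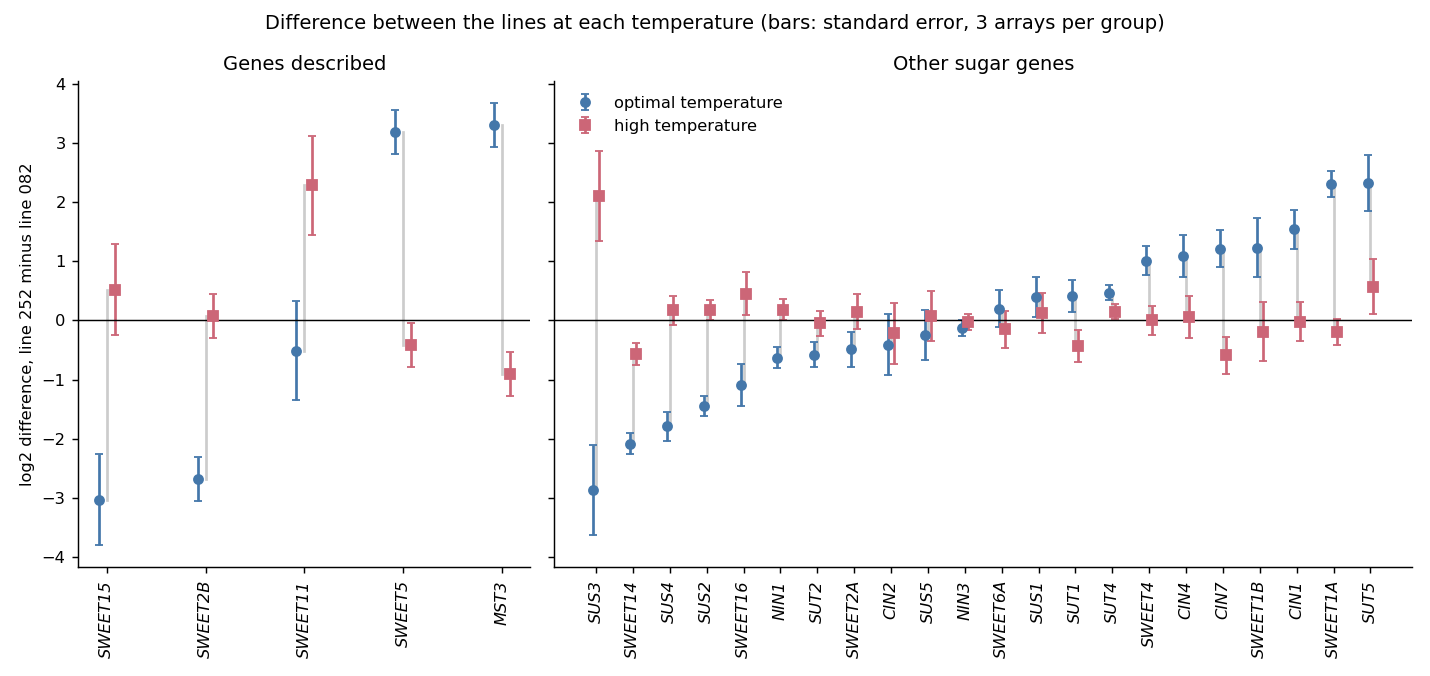
Log2 difference between the lines (252 minus 082) at optimal (circles) and high temperature (squares) for the 5 genes on the left and 22 other sugar genes on the right, with standard errors. At high temperature no gene on the right was called, and the value farthest from 0 is that of SUS3 (2.10, or 1.21 without replicate 3 of line 252), while at optimal temperature 11 were called.

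The genes whose pattern was most like each of the 5 were sought by Pearson's r of log2 signal over the 12 arrays among genes with a name. The arrays share their scaling and fall into 4 groups, so r mostly reflects the order of the groups and is a description. For SWEET2B these were PSY2, a phytoene synthase of carotenoid synthesis (r = 0.967), the splicing factor gene C3H60 (0.963) and the metallothionein gene MT4A (0.959). For SWEET5 they were NifU1, an iron-sulfur cluster scaffold (0.976), the transcription factor gene WRKY76 (0.976) and the calcium-dependent kinase gene CPK1 (0.971). MST3 had the closest match of the 5, the cation exchanger gene CAX2 (0.995), followed by the homeodomain gene HOX1 (0.986), with BHLH148 next. CAX2 moved over a narrower range, from 292 ± 83.8 in line 082 at optimal temperature to 733 ± 83.7 in line 252 at optimal temperature.

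The clade III genes had other neighbours. SWEET11 was most like the lipid transfer protein gene LTP110-A (r = 0.969), the kinesin gene KIN7D (0.947) and TBL5 (0.945), and LTP110-A shared its uneven high-temperature group in line 252 (4220 ± 5910, SD, n = 3). SWEET15 was most like CPK23, a calcium-dependent kinase known from developing seeds (0.950), which had 25600 ± 4870 in line 082 at optimal temperature and 221 to 725 as means of the other groups. KIN13B (0.938) and CASPL5B3 (0.928) came next. Among the 5 genes themselves r was 0.816 between SWEET11 and SWEET15, −0.859 between SWEET2B and SWEET5 and −0.799 between SWEET15 and MST3.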

How the data were processed

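The deposited intensity values are MAS5 signals on a linear scale, per the submitters' processing notes, 1 array per sample from 6 µg of total RNA. No source used here gives the MAS5 version or target. The mean after a 2% trim was 500.1 on every array. Of 57381 probe sets, 187 controls were set aside, and 33610 above the array median in at least 3 of 12 arrays were kept. Names came from the platform annotation and a RefSeq table of assembly ASM3414082v1: 22436 probe sets had 1 gene, 95 several and were left unnamed. Of the 5 genes only SWEET2B has more than 1 probe set.

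Log2 of signal plus 16 was fitted in limma 3.58.1 (R 4.3.3) with 4 group means, 8 residual degrees of freedom and an intensity trend. Benjamini-Hochberg adjustment ran over all probe sets kept. The number of arrays limits the precision. Named list genes are up to 4 called genes per contrast with the largest changes, or up to 2 per list where none was called; SWEET1A, SWEET4, SWEET14, SWEET16, SUT1, SUT2 and SUT5 are also named where other contrasts called them. The genes, lists and rules were chosen with earlier results of these data known.

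In data simulated for heat in line 252 on 33610 probe sets, 100 were given a log2 change. Of added changes of 1.5, 51% were called, and of 3, 91%, with 8 false calls. The real contrast called 3167 probe sets up and 6523 down, which makes its adjustment less strict. The simulated rates therefore do not give the share of real changes found. Alternatives were other scalings, pseudocounts, filters, variance models, probe set rules, a replicate block and leaving out each array. Same-numbered arrays of different groups did not deviate together (r from −0.203 to 0.097 over 12 pairs).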

Additional observations from a re-analysis of the deposited data

Results flagged for a closer look

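The heat change differed between the lines by the test of the difference itself (limma, 252 minus 082, log2 scale) for 9 of the 22 sugar genes outside the set of 5. The difference was 4.97 for SUS3 (adjusted p = 0.0043), 1.97 for SUS4 (adjusted p = 0.0014), 1.54 for SWEET16 (adjusted p = 0.036) and 1.51 for SWEET14 (adjusted p = 0.00087). It was −2.50 for SWEET1A (adjusted p = 0.00012) and −1.79 for CIN7 (adjusted p = 0.0085). Among genes named after their values were seen it was −1.02 for SWEET4 (adjusted p = 0.036), −1.56 for CIN1 (adjusted p = 0.024) and 1.62 for SUS2 (adjusted p = 0.00040). SWEET14 and SWEET16 were named through other contrasts. The size for SUS3 depends on signals of 4.01 to 8.85 in line 082 at high temperature, below the array medians, and ran from 3.98 to 6.31 over pseudocounts of 64 and 1. The other probe set of SWEET14 gave 0.85, under the minimum of 1. In line 252 the signals of SWEET16 were 14.6 to 36.6 at optimal temperature, below the array medians of 55.1 to 61.5, and 72.7 to 113 at high temperature, above those of 37.9 to 41.9.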

How the results depend on the processing

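Counts of called sugar genes stayed within 1.5 times of the reported count in every comparison and alternative, and leaving out 1 array gave 9 to 12 for heat in line 252, 10 to 12 in line 082, 6 to 10 for the difference, 8 to 11 at optimal temperature and 0 at high temperature. SWEET11 and SWEET15 in line 252 became calls with array weights (−2.20 and −2.25), and without 1 array ran from −2.59 to −0.90 and from −2.35 to −0.36. MST3 in line 252 became a call after quantile normalization (−1.14), with array weights (−1.01) and with scaling to the hybridization spikes, added after seeing the data (−1.35); without 1 array it ran from −1.25 to −0.64. SWEET2B in line 082 ran from −0.05 to 0.81 and SWEET5 in line 082 from −2.35 to −1.92. Apart from leaving out arrays and array weights, the cause of these changes was not tested. The median change of all kept probe sets for heat in line 252 was −0.20, and 0.07 after quantile normalization, 0.10 after centring on the 75th percentile and −0.57 with the spikes. With the spikes 1 sugar gene rose and 9 fell in line 252, and 4 were higher and 6 lower in the difference; centring gave 7 and 6 in line 082. The replicate block changed no call of the 5 genes and gave 12 called sugar genes for heat in line 252 in place of 11; the numbers only label the arrays. In 3 of the 12 pairs compared, an array was most like the array of its own number among the 3 of the other group. Signals near the array median, as for SWEET5 at high temperature, limit how large a fall can be measured.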

Other observations

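Replicate 3 of line 252 at high temperature stood above the other arrays of its group for more genes than SWEET11 and SWEET15. Of the 212 genes at least 2 log2 units above both other arrays of the group, 192 were also above both on every optimal array of line 252. How many of all 16541 genes did so was not counted. The filter favours this, as genes dim on those 2 arrays were kept only if bright on others. The optimal arrays of line 082 could also be higher, with means of 22280 for SWEET11 and 4366 for SWEET15. SWEET11 ranked 48 and SWEET15 ranked 97 by their excess on replicate 3 among 16541 genes. The named genes with the largest excess were PRX112 (3398 against 116.7 and 13.01), AtbHLH004 (888.2 against 21.65 and 20.92) and OC-X (1212 against 79.97 and 75.24). Chosen after its values were seen, the cellulose synthase-like gene CSLA1 (1339 against 126.2 and 87.3) ranked 31. Chosen in the same way, the beta-expansin gene EXPB7 (1395 against 160.7 and 61.9) ranked 54. The cellulose synthase gene CESA5 (1413 against 152.6 and 233.5), also so chosen, ranked 99. The 212 were 1.28% of the 16541 genes. They held 0 of the 12 grain markers kept and 1 of 11 cell division markers (MCM4, 181.8 against 5.95 and 8.74). They also held 1 of the 22 other sugar genes (SUS3, 308.4 against 20.9 and 52.6). Nothing is read from these counts. The Dap 3′ to 5′ ratio of this array (13.2) was close to those of the other high-temperature arrays, at 11.2 to 13.1. The 3′ to 5′ ratio of the GAPDH control (14.8) was the highest of the 12 arrays, against 2.98 and 10.3 in its group. The part of these ratios in the excess was not tested.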
